A study of Mus musculus with 5 samples.

Results

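Ribosome biogenesis genes encode the nucleolar machinery that transcribes, modifies, cleaves and folds ribosomal RNA (rRNA) into ribosomal subunits. The 50 genes described here were selected by name, by a rule that uses no measured value, for roles in RNA polymerase I transcription, small nucleolar ribonucleoproteins (snoRNPs) or pre-rRNA processing. Each name matched 1 of the 55573 genes in the count table. RNA was sequenced from N2A (Neuro-2A) cells, which derive from a mouse neuroblastoma and were grown in DMEM/F-12 with serum and transfected with 60 pmol of siRNA by the TransIT-X2 reagent. The 2 siCtl libraries (replicates 1 and 3) came from cells given the commercial Silencer Negative Control #1 siRNA, and the 3 siUpf1 libraries (replicates 1, 2 and 3) from cells given an siRNA against Upf1. The comparison asks how the mRNAs of these genes change when UPF1, the RNA helicase required for nonsense-mediated mRNA decay (NMD), is depleted. The knockdown is transient and rests on a single siRNA sequence.

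In the nucleolus, RNA polymerase I copies the rDNA repeats into a long precursor. Box C/D snoRNPs guide ribose methylation and box H/ACA snoRNPs guide pseudouridylation of this precursor, while the U3 snoRNP and the UTP protein complexes assemble on it into the small subunit processome. Separate sets of helicases, GTPases, nucleases and scaffold proteins mature the small and large subunits, and demand for all of them is high in dividing tumour cells.

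The libraries held between 20402205 and 27717594 reads assigned to genes. Upf1 itself fell from 5217 and 5243 normalised read counts in siCtl to 2403, 2496 and 2449 in siUpf1 replicates 1, 2 and 3, which is 46.8% of the siCtl mean. A normalised count is the read count divided by the library's DESeq2 size factor. Of 11 sympathetic neuroblastoma markers, 9 averaged 100 normalised counts or more, and Nefl was under 10. Of the markers of other cell types, 1 of 5 for fibroblasts, 1 of 5 for glia, 0 of 4 for leukocytes and 1 of 3 for endothelium reached 100. Summed marker levels differed between the groups without overlap. The neuroblastoma sum was 39220 to 39370 normalised counts in siCtl and 45610 to 47650 in siUpf1, and the glia sum 474.9 to 507.6 and 529.5 to 559.8. The fibroblast sum was lower in siUpf1 (287.7 to 306.1 in siCtl, 223.4 to 257.6 in siUpf1), as were the endothelium sum (213.8 to 223.6, 133 to 140) and the leukocyte sum (38.7 to 40.9, 33.0 to 36.4). Their part in the results below was not tested. The labels number the libraries but do not say that they came from separate cultures, although the study describes independent experiments for its immunoblots of this knockdown. If they did not, p-values measure only the spread between these libraries, which may be technical. Levels are per bulk RNA sample, so fewer cells with an mRNA and less mRNA per cell cannot be told apart.

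Most of the ribosome biogenesis mRNAs that changed were lower after Upf1 knockdown, and the changes were small. By DESeq2's test at an adjusted p-value under 0.05, 23 of the 50 (46.0%) fell and 4 (8.0%) rose, beside 22.9% lower and 22.0% higher among the 15191 genes tested (44.9% called in all). The other 23 did not pass. All 50 are well expressed, with mean normalised counts between 625.8 and 35487. Well-counted genes are called more often, and of the 7988 genes with a mean of at least 500, 32.6% were lower and 29.9% higher. The median log2 fold change of siUpf1 over siCtl was -0.10 for the 50 genes, beside -0.0024 for all genes tested and -0.02 for those with at least 500 counts. The range ran from -0.66 (Utp14a) to 0.31 (Polr1b), and no member reached a change of 1 on the log2 scale. Among the 27 called members the median size of the change was 0.26.

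**Figure D1:**
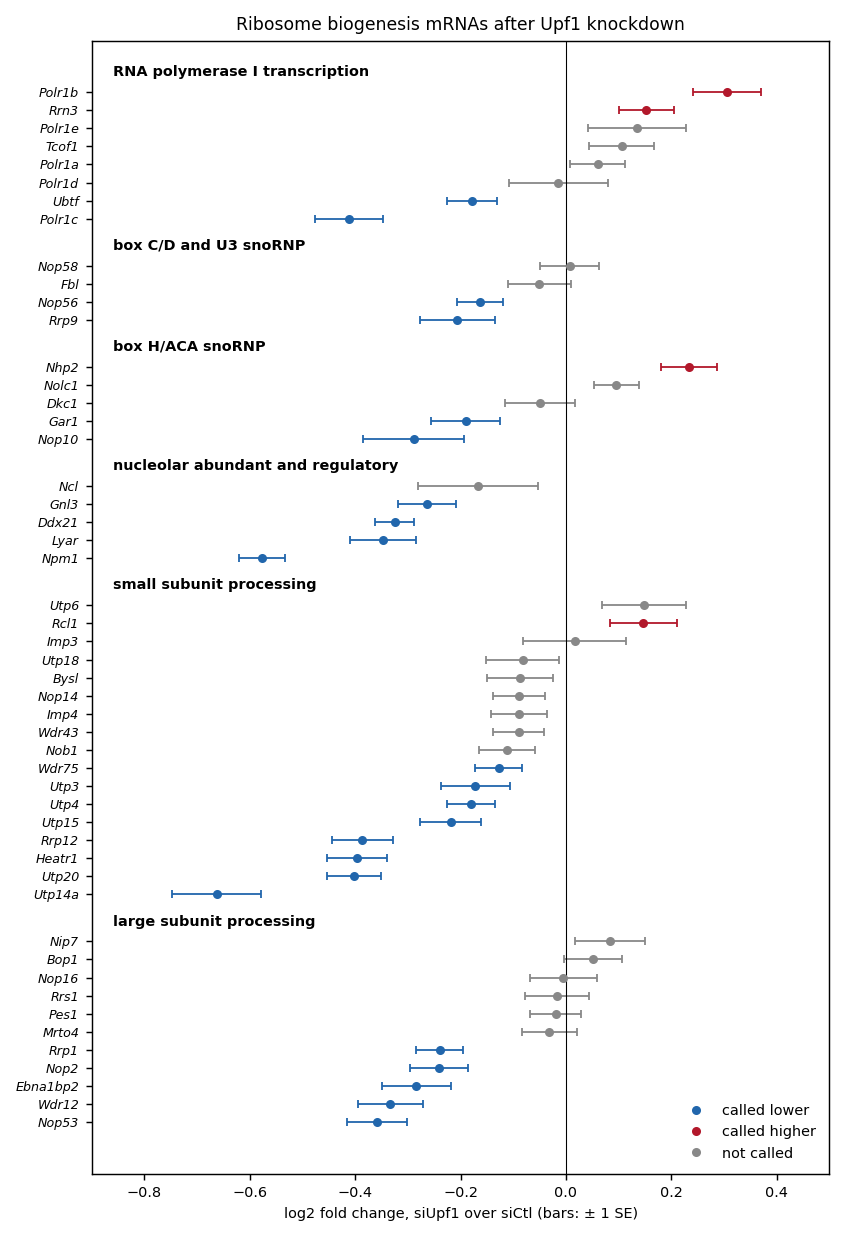
The horizontal axis gives the log2 fold change of siUpf1 (n = 3) over siCtl (n = 2) for each of the 50 genes, grouped by role, with bars of ± 1 standard error (SE) from DESeq2. Blue points (23) were called lower, red points (4) higher, and grey points (23) were not called at an adjusted p-value of 0.05. The blue points reach -0.66 at Utp14a and the red points 0.31 at Polr1b.

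The 3 siUpf1 libraries resembled each other in this respect. Relative to the siCtl mean, the median log2 ratio over the 50 genes was -0.11 in replicate 1, -0.12 in replicate 2 and -0.11 in replicate 3. The median over all genes tested, which the size factors hold near 0, was between -0.0048 and -0.0078. The number of members below their siCtl mean was 39, 33 and 37. In 27 members every siUpf1 library was below both siCtl libraries, in 6 every one was above, and in 17 the groups overlapped. Over all genes tested the corresponding shares were 35.2% below and 34.3% above. Of the 7988 genes with a mean of at least 500 counts, 3347 were below and 3008 above. Variation among the siUpf1 libraries had a median coefficient of 3.61% and was widest for Ncl, at 7.65%.

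The group of abundant or regulatory nucleolar genes had the lowest median of the role groups. Of the 5 genes, 4 fell (80.0%), none rose, and the median log2 fold change was -0.33. Among genes with a mean of at least 500 counts, 32.6% were lower. Npm1 (nucleophosmin, a histone and ribosome chaperone of the granular nucleolus; ENSMUSG00000057113.13, GRCm38 chromosome 11, 33152287 to 33163206, minus strand) was the most abundant member per length, at 658 RPKM (reads per kilobase of exon, scaled to library size) in siCtl. It had 42931 and 45544 normalised counts in siCtl replicates 1 and 3 and 30742, 29764 and 28456 in siUpf1 replicates 1, 2 and 3. Both siCtl libraries were far above all 3 siUpf1 libraries, whose mean was 67.0% of theirs. The log2 fold change was -0.58 ± 0.043 (SE), with an adjusted p of 1.38e-38. Of the 100-base words in 1 representative Npm1 transcript, 22.1% also occur in another annotated gene, so part of its count could be lost or shared.

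Ddx21, a helicase that acts in RNA polymerase I transcription and snoRNA release, fell by 0.33 ± 0.037 on the log2 scale. Its counts were 20239 and 20507 in siCtl and 16000, 16224 and 16566 in siUpf1, among the tightest of the set, with no overlap. Lyar, a nucleolar zinc finger protein that acts in rRNA transcription and processing, fell by 0.35 ± 0.063, and Gnl3 (nucleostemin, a nucleolar GTPase) fell by 0.26 ± 0.055. Ncl (nucleolin, which binds nascent pre-rRNA) was the exception. It had 32975 and 38186 counts in siCtl and 34386, 30953 and 29709 in siUpf1, so the siUpf1 replicate 1 value lay between the siCtl values. Its log2 fold change of -0.17 ± 0.114 had an adjusted p of 0.237. Without siCtl replicate 1 the value was -0.27 and passed, with an adjusted p of 0.00103, and without siCtl replicate 3 it was -0.06, with an adjusted p of 0.569. Of the other alternatives edgeR alone called it, with an adjusted p of 0.0337.

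**Figure D2:**
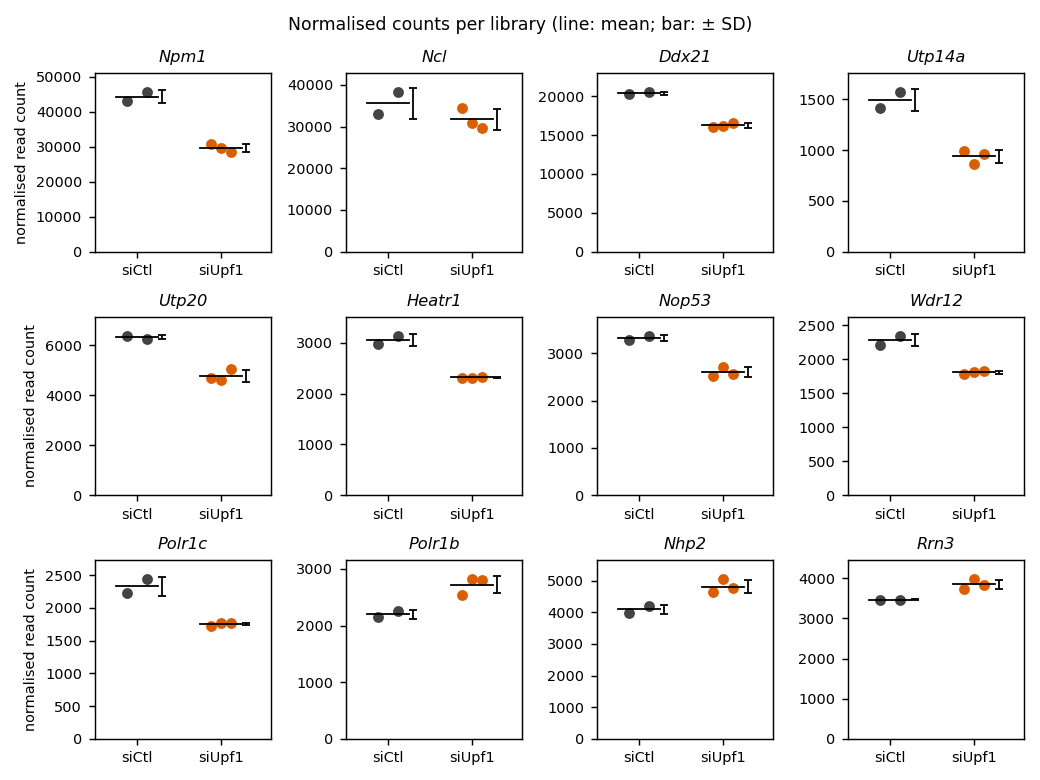
Each panel shows 1 gene, with normalised read counts from 0 on the vertical axis and a point for each library (2 siCtl, 3 siUpf1); lines are means and bars ± SD. The groups are separate in every panel but Ncl, and Polr1b, Nhp2 and Rrn3 are the panels where siUpf1 is higher.

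Of the 8 genes of RNA polymerase I transcription, 2 rose (25.0%), 2 fell (25.0%) and 4 did not pass, with a median of 0.08. These shares are close to those over all genes tested, 22.0% and 22.9%. Of genes with at least 500 counts, 29.9% were higher and 32.6% lower. Polr1b, a core catalytic subunit of the polymerase (ENSMUSG00000027395.15, chromosome 2, 129100995 to 129126594, plus strand), had 2144 and 2259 counts in siCtl and 2546, 2814 and 2809 in siUpf1. All 3 siUpf1 libraries were higher than both controls, and the log2 fold change was 0.31 ± 0.064 with an adjusted p of 8.62e-06. Polr1c, a subunit shared by RNA polymerases I and III (ENSMUSG00000067148.15, chromosome 17, 46243920 to 46248054, minus strand), had 2228 and 2436 counts in siCtl and 1729, 1765 and 1766 in siUpf1. It lay at 75.2% of the siCtl mean, with a log2 fold change of -0.41 ± 0.065 and an adjusted p of 1.27e-09.

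The factors that load the polymerase also parted. Rrn3, which brings the polymerase to the promoter, had 3457 and 3472 counts in siCtl and 3748, 3975 and 3839 in siUpf1, a rise of 0.15 ± 0.052 with an adjusted p of 0.00853. Ubtf, the architectural factor that coats the active rDNA repeats, fell by 0.18 ± 0.048. These are small changes, and their calls depended on which libraries were included. The Rrn3 call was lost without siCtl replicate 1, siCtl replicate 3 or siUpf1 replicate 2 (adjusted p of 0.121, 0.102 and 0.0554), and the Ubtf call without siCtl replicate 3 (0.0949). The largest subunit Polr1a (0.06), Polr1d (-0.01), Polr1e (0.13) and Tcof1, whose treacle protein aids rDNA transcription (0.11), did not pass. Tcof1 passed only without siUpf1 replicate 1, at 0.16 with an adjusted p of 0.0271.

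Among the box C/D and U3 snoRNP proteins, 2 of 4 fell, none rose, and the median was -0.11. Of genes with at least 500 counts, 32.6% were lower and 29.9% higher, so a count among 4 genes says little. Rrp9, a protein of the U3 snoRNP, fell by 0.21 ± 0.071, and Nop56, a core scaffold, fell by 0.16 ± 0.044. Nop56 had 6921 and 7162 counts in siCtl and 6246, 6400 and 6226 in siUpf1, with no overlap. Its partner Nop58 (0.0074) and the methyltransferase Fbl (-0.05) overlapped between groups and did not pass. Fbl and Nop56 are uncertain, because 57.2% and 32.0% of their 100-base words occur in other annotated genes. Without siCtl replicate 3 neither call held (adjusted p of 0.191 for Rrp9 and 0.0752 for Nop56), and Rrp9 also missed without siUpf1 replicate 1 (0.0692) or siUpf1 replicate 3 (0.0762).

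The box H/ACA snoRNP, which holds 4 core proteins, showed opposite changes among them. Nhp2, which binds the guide RNA (ENSMUSG00000001056.3, chromosome 11, 51619735 to 51623714, plus strand), had 3994 and 4197 counts in siCtl and 4635, 5044 and 4773 in siUpf1. Every siUpf1 library was higher, the log2 fold change was 0.23 ± 0.053, and the adjusted p was 5.06e-05. Nop10, a small protein that bridges Nhp2 and the pseudouridine synthase (ENSMUSG00000027133.3, chromosome 2, 112261926 to 112263269, plus strand), had 734 and 728 counts in siCtl and 579, 617 and 601 in siUpf1.

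Every siUpf1 library was thus lower for Nop10, with a log2 fold change of -0.29 ± 0.096 and an adjusted p of 0.00729. Gar1, which helps the enzyme release its substrate, fell by 0.19 ± 0.065. The synthase itself, Dkc1 (dyskerin), had a log2 fold change of -0.05 and overlapping groups. Nolc1, a chaperone of snoRNPs, had 3 siUpf1 libraries above both controls, but its log2 fold change of 0.10 narrowly missed, with an adjusted p of 0.0508. It passed with edgeR (0.034), with total-count size factors (0.0369) and with a minimum count (0.0490). The Nop10 call was lost without siCtl replicate 1, siCtl replicate 3 or siUpf1 replicate 1 (adjusted p of 0.0962, 0.0896 and 0.0518), and the Gar1 call without siCtl replicate 3 or siUpf1 replicate 3 (0.198 and 0.0836).

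The small subunit processing genes formed the largest group, in which 8 of 17 fell, 1 rose and 8 did not pass, with a median of -0.11. These shares were 47.1% lower and 5.9% higher, beside 32.6% and 29.9% of genes with at least 500 counts. Utp14a, which stimulates the helicase that removes U3 from the pre-rRNA (ENSMUSG00000063785.12, chromosome X, 48256862 to 48282453, plus strand), was the member that fell most. It had 1413 and 1569 counts in siCtl and 993, 866 and 961 in siUpf1. The siUpf1 mean was 63.0% of that in siCtl, with a log2 fold change of -0.66 ± 0.084 and an adjusted p of 3.71e-14.

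Utp20, a very large helical-repeat scaffold, had 6374 and 6269 counts in siCtl and 4696, 4594 and 5044 in siUpf1, a log2 fold change of -0.40 ± 0.051. Rrp12, which serves the late steps and export of pre-ribosomes, fell by 0.39 ± 0.057. The groups were well apart for both genes.

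The UTP-A complex binds the leading end of the pre-rRNA and links its transcription to processing. It has 5 members here. Heatr1 had 2971 and 3139 counts in siCtl and 2314, 2316 and 2335 in siUpf1, a log2 fold change of -0.40 ± 0.057. Utp15 fell by 0.22 ± 0.057, Utp4 by 0.18 ± 0.046 and Wdr75 by 0.13 ± 0.045. Wdr43 was lower in all 3 siUpf1 libraries without passing (-0.09, adjusted p of 0.117). The UTP-B complex is represented by Utp6 (0.15, adjusted p of 0.121) and Utp18 (-0.08, adjusted p of 0.358), and neither passed. Utp6 did pass with edgeR, at an adjusted p of 0.037.

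Utp3, a component of the processome, fell by 0.17 ± 0.065, and Rcl1, a processome protein required for early cleavage, rose by 0.15 ± 0.063 with an adjusted p of 0.0464. The calls of both, and that of Wdr75, depended on which libraries were included. Utp3 was lost without siCtl replicate 3, siUpf1 replicate 2 or siUpf1 replicate 3 (adjusted p of 0.354, 0.096 and 0.0846). Rcl1 was lost without siCtl replicate 1, siCtl replicate 3, siUpf1 replicate 2 or siUpf1 replicate 3 (0.447, 0.0715, 0.186 and 0.128). Wdr75 was lost without the same 4 libraries (0.16, 0.0845, 0.054 and 0.0648). The remaining members did not pass. They were Nob1, the endonuclease that makes the end of the mature small subunit rRNA (-0.11), Imp4 (-0.09), Nop14 (-0.09), Bysl (-0.09) and Imp3 (0.02). Nob1 passed with TMM size factors, at an adjusted p of 0.0491.

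Of the 11 large subunit processing genes, 5 fell (45.5%), none rose, and the median was -0.03. Among genes with at least 500 counts 32.6% were lower, and 62.5% were called in either direction. Nop53, an adaptor that brings the exosome to the large subunit precursor, had 3282 and 3370 counts in siCtl and 2515, 2717 and 2562 in siUpf1, a log2 fold change of -0.36 ± 0.057. Wdr12 had 2213 and 2341 counts in siCtl and 1784, 1810 and 1830 in siUpf1, a log2 fold change of -0.33 ± 0.062. The groups were separate for both. Ebna1bp2, a nucleolar assembly factor, fell by 0.28 ± 0.066, and the rRNA methyltransferase Nop2 and the early assembly factor Rrp1 each fell by 0.24.

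Wdr12 works in the PeBoW complex with Pes1 and Bop1, which is needed for maturation of the large subunit. Pes1 (-0.02) and Bop1 (0.05) overlapped between groups and did not pass. Rrs1 (-0.02), which helps to seat the small rRNA of the large subunit, Mrto4 (-0.03), an assembly factor for the ribosomal stalk, Nop16 (-0.0052) and Nip7 (0.08) did not pass either. Mrto4 and Pes1 share 8.5% and 4.2% of their 100-base words with other annotated genes.

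Members of a complex could therefore be set against each other within a library, where the size factor cancels. These pairs were picked after their values were seen, so they are a description, no test is used, and each ratio of counts also depends on the lengths of both mRNAs. Nhp2 to Nop10 was 5.44 and 5.76 in siCtl and 8.01, 8.17 and 7.94 in siUpf1. Bop1 to Wdr12 was 1.92 and 1.95 in siCtl and 2.47, 2.65 and 2.48 in siUpf1. Polr1b to Polr1c was 0.962 and 0.927 in siCtl and 1.47, 1.59 and 1.59 in siUpf1.

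**Figure D3:**
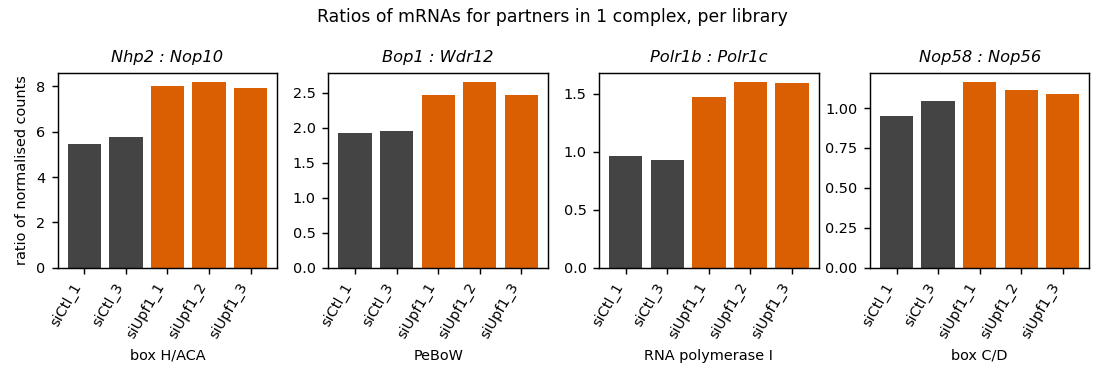
Bars give the ratio of the normalised counts of 2 mRNAs whose proteins share a complex, from 0, with 1 bar for each library (grey siCtl, orange siUpf1). The siUpf1 bars are higher in all 4 panels, and the gap is smallest for Nop58 to Nop56, at 0.947 and 1.04 in siCtl against 1.16, 1.11 and 1.09 in siUpf1.

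A further 149 ribosome biogenesis genes were listed from general knowledge of the pathway, and 148 were tested, since Exosc6 had no reads. The list was proposed with earlier results of these data known, so it is not an independent check on the members. In this list 79 (53.4%) fell, 7 (4.7%) rose, and the median was -0.20, beside 22.9% lower and 22.0% higher over all genes tested. By role, 28 of 44 small subunit genes fell and 2 rose, 28 of 53 large subunit genes fell and 1 rose, and 10 of 27 trimming nuclease genes fell and 2 rose. Of the 10 genes for snoRNP assembly 7 fell and none rose, with a median of -0.45, and of 14 further polymerase I subunits and factors 6 fell and 2 rose.

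Changes in this wider list were larger at its ends. The 5 that fell most were Urb2 (-1.10), which acts on early large subunit precursors, Krr1 (-0.99), a processome protein, Trmt112 (-0.95), an activator of several methyltransferases, the helicase Ddx52 (-0.93) and Ttf1 (-0.83), which terminates RNA polymerase I. Urb2 had 5933 and 5760 counts in siCtl and 2631, 2801 and 2754 in siUpf1, a lower level in every siUpf1 library. The 5 that rose most were Pwp2 (1.00), a UTP-B scaffold, Twistnb (0.65) and Cd3eap (0.34), both subunits of RNA polymerase I, Rpp40 (0.36), a subunit of RNases P and MRP, and the exosome subunit Exosc5 (0.25). Pwp2 had 1458 and 1494 counts in siCtl and 2869, 3091 and 2932 in siUpf1, well apart in the other direction. Of the 82 cytosolic ribosomal protein genes, whose products the pathway assembles, 67 (81.7%) fell and 2 (2.4%) rose, with a median of -0.27. The shares were 22.9% lower and 22.0% higher over all genes tested, and 32.6% and 29.9% of genes with at least 500 counts.

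**Figure D4:**
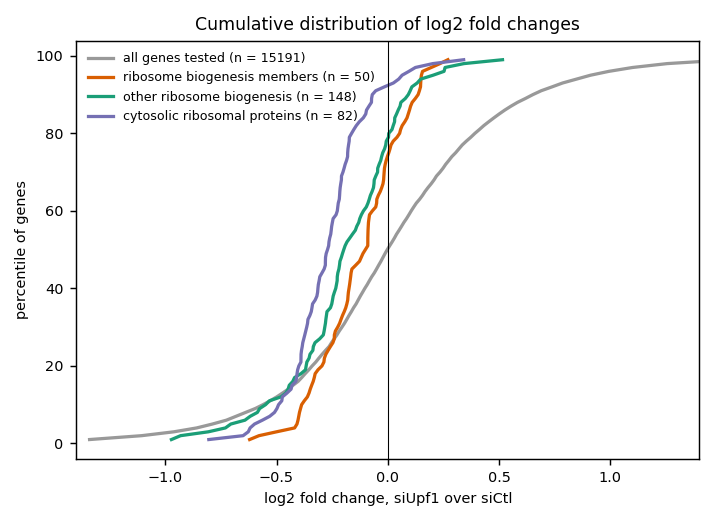
Curves give the percentile of genes (vertical axis) at or below each log2 fold change of siUpf1 over siCtl (horizontal axis, tails not shown) for the 50 members, 148 further ribosome biogenesis genes, 82 cytosolic ribosomal protein genes and all 15191 genes tested. The curves cross the middle of the vertical axis at -0.10, -0.20, -0.27 and -0.0024. That of the members is much steeper than that of all genes, which include genes with low counts. A change of 1 or more on the log2 scale was seen in 1006 of the 15191 genes, but in 188 of the 7988 with at least 500 counts, which have no curve here.

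MYC proteins are known activators of ribosome biogenesis genes and bind the E-box CACGTG, so the network and this motif were examined. Of 11 genes of the MYC network 4 rose (36.4%), namely Mycn, Mxd1, Mxd3 and Mxi1. Max and Mnt fell (18.2%). Over all genes tested the shares were 22.0% higher and 22.9% lower. The count mixes MYC genes with others of the network, and MYC activity was not tested. Mycn, the neuroblastoma oncogene, had 274 and 244 counts in siCtl and 673, 640 and 649 in siUpf1, a rise of 1.34 ± 0.117. Per length it remained far below Myc, at 7.99 RPKM in siUpf1 against 87.5 for Myc. Myc was at 93.9% of its siCtl mean and did not pass (-0.09, adjusted p of 0.0846), while Max, the shared partner, fell by 0.14 ± 0.056.

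A RefSeq promoter on GRCm38.p6, given as a window of 300 bases around the start site, was found for 42 members. CACGTG, which reads the same on both strands, was present in 8 of them (19.0%), beside 11.6% of 10033 tested protein-coding genes and 7.2% of all 32851 promoter windows. The members with the motif had a median log2 fold change of -0.09 and those without it -0.145, while over all tested genes with a promoter the medians were -0.055 with and -0.02 without it. They are printed so that positions and flanks can be compared, each on its gene's strand with the motif in capitals, and with the name of the window, its strand and the motif's position from the start site.
Rrn3, chr16:13780449-13780748, plus, whole window, -215 and -48: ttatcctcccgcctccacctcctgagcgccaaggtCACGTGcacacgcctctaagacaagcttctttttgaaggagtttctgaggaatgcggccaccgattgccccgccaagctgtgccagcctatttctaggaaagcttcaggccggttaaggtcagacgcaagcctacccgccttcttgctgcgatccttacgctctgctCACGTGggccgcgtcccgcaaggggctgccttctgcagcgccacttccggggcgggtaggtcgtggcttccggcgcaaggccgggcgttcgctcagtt
Utp4, chr8:106893645-106893670, plus, 16: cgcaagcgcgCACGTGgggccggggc
Wdr43, chr17:71616222-71616247, plus, 18: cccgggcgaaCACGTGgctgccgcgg
Utp18, chr11:93885771-93885796, minus, -20: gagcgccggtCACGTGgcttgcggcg
Utp20, chr10:88826765-88826787, minus, 38: gcactaactaCACGTGaggaaaa
Imp4, chr1:34439698-34439723, plus, -121: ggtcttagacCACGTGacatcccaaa
Pes1, chr11:3963967-3963992, plus, 3: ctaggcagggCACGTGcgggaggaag
Nop2, chr6:125131813-125131838, plus, -60: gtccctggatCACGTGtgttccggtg

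Of these 8 genes, Rrn3 rose, Utp4, Utp20 and Nop2 fell, and Wdr43, Utp18, Imp4 and Pes1 did not pass. Rrn3, which holds the motif at 2 positions, is thus the only one of them that rose. A match is a run of letters and was not tested for binding.

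Several members carry small nucleolar RNAs (snoRNAs) inside their introns. Nop56, Nop58, Dkc1, Nop53, Gnl3, Ncl and Wdr43 did so, 7 of 50 (14.0%) beside 1.6% of 12724 tested protein-coding genes. Their median log2 fold change was -0.16, beside -0.09 for the other members, and over all tested protein-coding genes the medians were -0.19 with and -0.02 without a snoRNA. Counts over exons did not measure the snoRNAs themselves. Annotated transcripts of the NMD class were listed for 18 members (36.0%, beside 28.5%), and the median was -0.10 with and -0.11 without one. Gene counts add all isoforms of a gene, so a change in an NMD isoform could not be seen apart from the rest.

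Either strand of the siRNA could in principle act on other mRNAs through its seed, bases 2 to 8, which pairs with the complement in a 3′ untranslated region (3′ UTR). The strands are shown 5′ to 3′ with the seed in capitals, followed by 3 member sites with the match in capitals, taken from 1 representative GENCODE M21 transcript a gene.
Upf1 siRNA antisense strand: uAAUUAUCaggaaccuuga
Upf1 siRNA sense strand: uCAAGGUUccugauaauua
Ncl, antisense seed site: ctgatctaGATAATTtcctaca
Utp15, antisense seed site: actcaaagGATAATTaagagaa
Wdr12, sense seed site: gaaaagaaAACCTTGctttacc

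The antisense site was present in 3 members (6.0%, beside 7.7% of 12648 tested genes with a 3′ UTR), namely Ncl, Imp4 and Utp15, of which Utp15 fell. The sense site was present in 4 (8.0%, beside 9.9%), namely Imp4, Wdr12, Bysl and Dkc1, of which Wdr12 fell. Over all tested genes with a 3′ UTR, the median log2 fold change was -0.105 with and -0.017 without a sense site, and 0.003 with and -0.024 without an antisense site. Among the members it was -0.088 with and -0.12 without a sense site, and -0.167 with and -0.09 without an antisense site. Npm1, Utp14a, Utp20, Heatr1 and Polr1c, the members that fell most, had neither. Their 3′ UTRs in the transcripts used were short, at 527, 122, 297, 216 and 182 bases, which leaves little room for a match. Whether a seed acted on any member was not tested.

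Rows of the count table at the repeat-derived 45S rRNA locus on chromosome 17 varied between libraries without following the groups. Gm42418 took 4.27% to 7.32% of all counts, with both extremes in siUpf1 libraries, and was not called (adjusted p of 0.833). Gm26917 took 0.6% to 0.92% and was not called (0.478), and AY036118 had no reads. In poly(A)-selected RNA these rows do not measure rRNA output.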

How the data were processed

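The authors deposited raw read counts for each gene, which they made with fastp, STAR in two-pass mode on GRCm38.p6 and featureCounts on the reverse strand of exons (GENCODE M22 or M25), without normalisation or pooling. Total counts were 20402205 to 27717594 per library. Counts hide PCR duplicates, so the true error is at least the counting error.

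All genes were fitted with DESeq2 1.42.0 (R 4.3.3), the test in the study's methods: Wald test of siUpf1 against siCtl, 5 libraries, size factors by median of ratios, p-values adjusted by Benjamini-Hochberg over all genes after independent filtering, called at 0.05. edgeR 4.0.16 (quasi-likelihood) was an alternative. With 2 libraries against 3, an exact permutation test has 10 splits and cannot go below 0.1 (the value computed for each of 7 count ratios), so no statement rests on one. The rule for the members uses no measured value, but the members and lists were proposed with earlier results of these data known. Named were Upf1, the members, Myc, the called genes of the MYC network and the 45S-locus rows. From the wider list, the 5 highest and 5 lowest called genes that averaged 100 normalised counts or more were named. RPKM used the summed exon length of GENCODE M21, which understates genes with long, rarely used exons and matched 55394 of 55573 identifiers. Promoters were from RefSeq. Exons on the same strand of another gene overlap Nop56 (328 nt), Gnl3 (235 nt), Ncl (216 nt) and Nop58 (84 nt). Scripts were tested on simulated data. The value of 1 marker gene is not reported here.

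Replicate numbers gave no sign of pairing: deviations of same-numbered libraries from their group means had r = -0.087 (number 1) and -0.076 (number 3) over 11898 genes. The deviations of the 2 siCtl libraries mirror each other, so these values are not independent and cannot exclude pairing. Alternatives were edgeR, TMM or total-count size factors, a minimum of 10 counts in 2 libraries, no filter, a block for the replicate number, and omission of each library in turn.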

Additional observations from a re-analysis of the deposited data

How the results depend on the processing

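Of the 27 members called, 15 were called under all 11 alternatives: Polr1b, which rose, and 14 that fell (Ddx21, Ebna1bp2, Gnl3, Heatr1, Lyar, Nop2, Nop53, Npm1, Polr1c, Rrp1, Rrp12, Utp14a, Utp20 and Wdr12). No called member changed sign. The median log2 fold change of the 50 genes was between -0.12 and -0.08 throughout. With the replicate number as a block, 14 members fell and 1 rose, and 46 further ribosome biogenesis genes fell and 3 rose. Calls over all genes also dropped under the block, to 1962 lower (15.6%) and 1957 higher of 12606 tested. The block costs residual degrees of freedom, and siUpf1 replicate 2, which has no siCtl library of its number, adds nothing to the blocked contrast. The correlations between same-numbered libraries gave no sign of pairing but could not exclude it. The calls lost under the block were Ubtf, Rrn3, Nop56, Rrp9, Gar1, Nhp2, Nop10, Utp4, Utp15, Wdr75, Utp3 and Rcl1. Leaving out each library in turn gave 16 to 22 members lower and 2 to 5 higher, and 54 to 77 further genes lower and 4 to 7 higher. The lowest total, 18 members, came without siCtl replicate 3. With 1 siCtl library left, that library is assumed to vary like the siUpf1 libraries. Over all genes tested, 22.1%, 21.6% and 20.2% were lower without siUpf1 replicate 1, 2 and 3. edgeR called 30 members, TMM factors 27 and total-count factors 26 (Wdr75 and Utp3 were lost). The count minimum called 28 and no filter 26 (Rcl1 was lost, as with TMM factors). Calls over all genes tested also varied. They were 4220 higher and 4172 lower of 15368 with edgeR, and 3223 and 3571 of 15709 with TMM factors. Total-count factors gave 3445 and 3087 of 14674, the count minimum 3540 and 3566 of 15391, and no filter 3066 and 3185 of 28121. Under every scaling the median over all genes tested stayed within 0.1 of 0 on the log2 scale. Median-of-ratios and TMM factors hold it near 0 by design. A shift common to all mRNAs therefore could not be seen. With 2 control libraries the spread of siCtl is poorly known, and members with changes of like size (Rrn3 and Utp6, at 0.15) fell on either side of the threshold.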
